A study of Mus musculus with 4 samples.

Results

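Dendritic cells (DCs) and CD3+ T cells taken from the same kind of treated tumour were compared gene by gene, to see which genes separated the cell types under treatment and which interferon genes both carried. The comparison was 1 treated DC library against 1 treated T cell library. A gene entered when it had a symbol and at least 20 counts in either library, which held for 10606 of the 21959 listed genes. The same rule applied to the PBS libraries kept 11364 genes. At the edge of the rule, 20 genes had a higher count of exactly 20, of which 13 were at 0 in the other library, and 27 genes with a higher count of 19 stayed out, of which 19 were at 0 in the other library.

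The cells came from mice bearing MC38 tumours, a mouse colon carcinoma line. Control mice received PBS, and treated mice received X-Ray+O-IMDQ, a prodrug that radiotherapy activates according to the series text. All cells were isolated from the tumour 72 h after the second treatment, and RNA was sequenced as 1 library for each of 4 groups. The groups are treated DCs, treated CD3+ T cells, PBS DCs and PBS CD3+ T cells. The labels name no strain, sex or age of the mice, no sorting gate for the DCs, no radiation or drug dose, and do not say whether animals were pooled.

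A single library could be matched to each group by its labels, which leaves no replicate spread. Each table also holds 1 library under a column name that begins like that of its PBS column but matches no sample label, and these 2 libraries were not used here. Differences below are therefore differences between libraries, and no p-values were computed. Total counts were 14056428 for treated DCs, 18463944 for treated T cells, 23797357 for PBS DCs and 18649824 for PBS T cells. Where a gene had no reads, its level may still reach the upper limit of 3 counts, which is 0.213 CPM (counts scaled to a library of 1e6) in treated DCs and 0.162 CPM in treated T cells. The treated DC library stood apart from the other libraries. Its log2(CPM + 1) values had a Pearson correlation of 0.670 with the PBS DC library across the 10606 genes, against 0.855 between the T cell libraries and 0.687 between the PBS DC and PBS T cell libraries. These correlations are across genes, which are not independent replicates. Among genes with at least 100 counts in the treated T cell library, 1206 of 8219 (14.7%) were at 0 in the treated DC library, against 554 of 8606 (6.44%) for the PBS T cell and PBS DC libraries. In the other direction 408 of 6475 genes (6.3%) with at least 100 counts in treated DCs were at 0 in treated T cells, against 286 of 7856 (3.64%) with PBS.

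DCs take up material, display its peptides on MHC class II and class I molecules, and give T cells costimulatory and cytokine signals. CD8 T cells recognise the peptides with the T cell receptor and kill with granzymes and perforin. Type I interferons and interferon-gamma signal from their receptors through JAK kinases to transcription factors, IRF9 among them, and both switch on antiviral and antigen-presentation genes in almost any nucleated cell. The imidazoquinoline IMDQ is a TLR7 agonist, and TLR7 is an endosomal receptor that is carried mainly by DCs, macrophages and B cells.

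Counts of the 2 treated libraries were scaled with the trimmed mean of M values (TMM), and each ratio is log2 of treated DC over treated T cell scaled counts, so that positive values are higher in DCs. Brackets give exact conditional binomial 95% intervals. They reflect counting error alone and hold no spread between animals or libraries. Amplified reads carry no molecular identifiers and were counted as independent, so the intervals can be too narrow. Calls required at least a 2-fold distance between the libraries and an interval that excluded 0. A gene was counted as shared when it had at least 20 counts in both libraries and was under 2-fold apart. Zero counts were replaced by 3 in the ratios. For genes at 0 in a library, a fold given as at least a value is the 95% interval limit nearer equality. Within a pair of counts, the treated DC value stands first.

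Most genes separated the libraries. Of 10606 genes, 3295 (31.1%) were called higher in treated DCs, 4599 (43.4%) were called higher in treated T cells, and 2682 (25.3%) were shared. The called genes sum to 74.4% in either direction, so that a call by itself sets no gene apart. The count of calls of each list below has to be read beside these shares. Among calls, 41.7% were higher in DCs with TMM, 32.4% with total-count scaling, and 55.9% among the 6798 genes that reached 20 counts in each library. The median log2 ratio over all genes was -0.43, and total-count scaling moved every ratio by -0.65. In the PBS libraries 2906 of 11364 genes (25.6%) were called higher in DCs and 3949 (34.8%) in T cells, or 60.3% in either direction. Of 9984 genes measured in both comparisons, 7295 were called with treatment, of which 3115 (42.7%) were called in the same direction with PBS. In 1291 genes (12.9%) the calls were opposite.

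**Figure D1:**
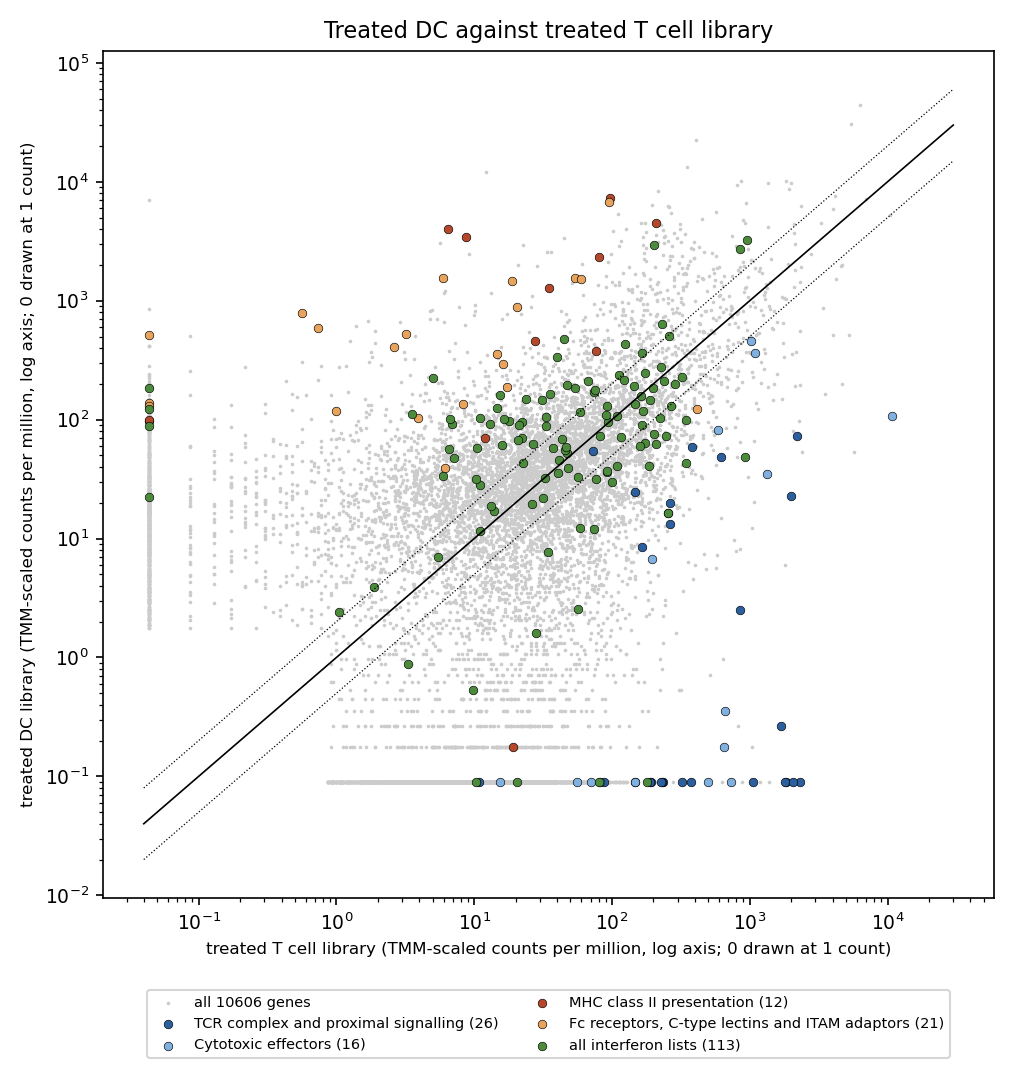
TMM-scaled CPM of 10606 genes in the treated T cell library (x axis, log) and the treated DC library (y axis, log), 1 point per gene, with equality as a solid line and 2-fold limits as dotted lines. T cell receptor and cytotoxic genes lie low on the right, many at 0 in DCs, MHC class II and lectin genes lie high on the left, and the 113 interferon genes lie on both sides, 38 of them between the 2-fold limits.

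The labelled cell types were checked against marker lists. All 10 T cell markers were called on the T cell side (median log2 ratio -10.01). Their summed level was 12824 CPM in treated T cells, 77.8 CPM in treated DCs, 12717 CPM in PBS T cells and 98.7 CPM in PBS DCs. Per length, the CD8 genes stood far above Cd4 in treated T cells, at levels of 708 FPKM for Cd8a, 1684 FPKM for Cd8b1 and 3.38 FPKM for Cd4 (FPKM divides counts by gene length and by library total). Foxp3, the regulatory T cell factor, had 0 counts in both treated libraries and 99 in PBS T cells. Of 7 B cell markers, Cd79b was the 1 that passed, at 177 against 137 counts (log2 1.41), and Ms4a1 had 0 counts in all 4 libraries. Of 9 NK cell markers, 6 passed, with 3 called higher in treated T cells and none in DCs. The list summed to 1177 CPM in treated T cells, 145 CPM in treated DCs, 1018 CPM in PBS T cells and 49.2 CPM in PBS DCs, and Ncr1, a receptor of NK cells, was at 0 in all 4 libraries. Much of that sum was Gzma (919 against 13640 counts) and Klre1 (637 against 6651 counts), of which Gzma is also made by CD8 T cells.

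All 8 conventional DC markers were called higher in treated DCs, with a summed level of 8176 CPM against 289 CPM in treated T cells. Most of that level came from the class II genes H2-Ab1 and Cd74, while the lineage genes were low. Zbtb46, a transcription factor that marks conventional DCs, had 57 counts in treated DCs, 0 in treated T cells, 9 in PBS DCs and 120 in PBS T cells. Flt3, the receptor for the DC growth factor Flt3 ligand, had 69 counts in treated DCs, 0 in treated T cells, 16 in PBS DCs and 24 in PBS T cells. Both lineage genes were thus found in treated DCs at under 100 counts and stood at 0 in treated T cells. The cDC1 receptor gene Clec9a had 952 counts in treated DCs, 0 in treated T cells, 154 in PBS DCs and 0 in PBS T cells, and Mgl2, a lectin of cDC2s and macrophages, had 6826 counts in treated DCs, 32 in treated T cells, 67405 in PBS DCs and 206 in PBS T cells. Batf3, a factor that cDC1s need, was at 0 in both treated libraries and had 479 counts in PBS DCs.

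Macrophage and monocyte genes were in the same library. All 15 macrophage markers were called higher in treated DCs (median log2 ratio 4.44), with 2764 CPM against 374 CPM in treated T cells and 9812 CPM in PBS DCs. The complement gene C1qb had 6119 against 581 counts, and Adgre1, which encodes F4/80, had 929 against 0 counts. Of 10 monocyte markers, 8 were called higher in treated DCs, and the list summed to 6853 CPM in treated DCs against 3830 CPM in treated T cells. Ly6c2 went the other way with 906 against 47843 counts, and this surface protein is also carried by activated CD8 T cells. The list of 10 neutrophil genes summed to 98.7 CPM in treated DCs and 2.0 CPM in treated T cells, with S100a8 at 1009 against 32 counts and S100a9 at 0 in both. The ratios below that are high in DCs come from a library that also held macrophage and monocyte transcripts. The part of these transcripts in the results was not tested. In bulk RNA, fewer cells of a type and less RNA per cell cannot be told apart.

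**Figure D2:**
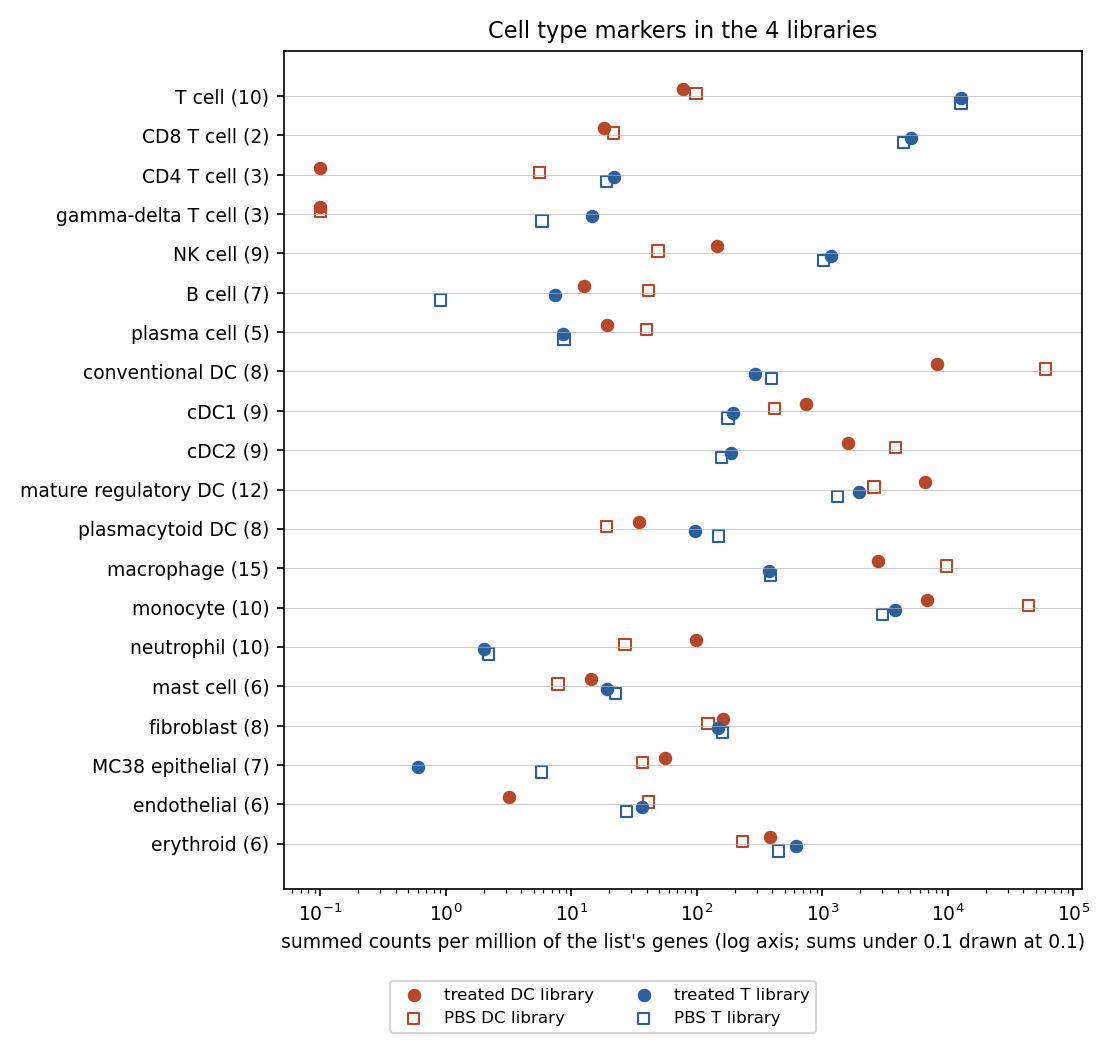
Summed CPM (x axis, log) of 20 marker lists (y axis, genes per list in brackets) in the treated DC, PBS DC, treated T cell and PBS T cell libraries, 1 point per library. T cell markers sum to 12824 CPM in treated T cells and 77.8 CPM in treated DCs, while macrophage markers sum to 2764 CPM and 374 CPM in treated DCs and treated T cells.

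T cell receptor genes had the lowest median of the programme lists. Of the 26 genes of the receptor complex and its first signalling steps, 25 were called higher in treated T cells and none in DCs, with a median log2 ratio of -9.28, and 14 were at 0 in treated DCs. Cd8a, the alpha chain of the CD8 coreceptor, had 0 counts in treated DCs, 47563 in treated T cells, 1 in PBS DCs and 46523 in PBS T cells. It was at least 6273-fold higher in treated T cells, and both T cell libraries were high and both DC libraries at or near 0. Lck, the kinase that phosphorylates the CD3 chains, had 0 counts in treated DCs, 42003 in treated T cells, 607 in PBS DCs and 30060 in PBS T cells. Cd2, an adhesion receptor, had 0 counts in treated DCs, 41631 in treated T cells, 574 in PBS DCs and 24323 in PBS T cells. Lck and Cd2 were thus at 0 in treated DCs and above 0 in the other libraries.

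The CD3 chains themselves were uneven in the DC libraries. Cd3g had 1 count in treated DCs, 53884 in treated T cells, 576 in PBS DCs and 61808 in PBS T cells, a log2 ratio of -14.68 (-19.98 to -12.20) between the treated libraries. Cd3d had 812 counts in treated DCs, 50769 in treated T cells, 434 in PBS DCs and 64986 in PBS T cells, a log2 ratio of -4.93 (-5.03 to -4.83). Cd3e had 0 counts in treated DCs, 4447 in treated T cells, 0 in PBS DCs and 4266 in PBS T cells. In treated T cells Cd3d and Cd3g had similar counts, whereas in treated DCs the first had 812 counts and the second had 1. The adaptor Lat had 3 against 38863 counts with treatment, and the kinase Zap70 had 0 against 8655 counts. Fyn, a kinase that myeloid cells also use, was the member that was not called, at 612 against 1672 counts and a log2 ratio of -0.41 (-0.55 to -0.28).

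Cytotoxic genes followed, with 16 of 16 called higher in treated T cells and a median log2 ratio of -7.19. Nkg7, a granule membrane protein, took the largest share of counts of any gene in the treated T cell library, 1.35%. It had 1200 counts in treated DCs, 250080 in treated T cells, 3235 in PBS DCs and 304640 in PBS T cells, which is 101-fold higher in treated T cells (95.8 to 107). Prf1, which encodes perforin, had 0 counts in treated DCs, 16811 in treated T cells, 0 in PBS DCs and 13630 in PBS T cells, and Fasl, the death receptor ligand, had 0 counts in treated DCs, 11588 in treated T cells, 1 in PBS DCs and 7447 in PBS T cells. Gzmb, the granzyme that activates caspases, had 391 counts in treated DCs, 30977 in treated T cells, 0 in PBS DCs and 23002 in PBS T cells. Perforin and Fas ligand thus had at most 1 count in either DC library, while granzyme B was also counted in treated DCs but not in PBS DCs. The receptors Klrd1 (4116 against 25323 counts, log2 -1.58) and Klrk1 (5173 against 23739 counts, log2 -1.16) were the least separated members.

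Of 10 inhibitory receptor genes, 9 were called higher in treated T cells (median -5.34). Pdcd1, which encodes PD-1, had 372 counts in treated DCs, 22463 in treated T cells, 257 in PBS DCs and 18792 in PBS T cells. Lag3, a receptor for class II, had 63 counts in treated DCs, 13091 in treated T cells, 42 in PBS DCs and 16829 in PBS T cells, and Tigit had 0 counts in treated DCs, 14632 in treated T cells, 232 in PBS DCs and 16033 in PBS T cells. For these 3 receptors both T cell libraries were high and both DC libraries low. Entpd1, which encodes the ectonucleotidase CD39, was not called (693 against 2144 counts, log2 -0.59).

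T cell transcription factor genes were more divided. Of 15 that passed the minimum, 12 were called higher in treated T cells and 2 in treated DCs (median -6.63). Id2, a regulator of effector T cells and of DCs, had 1714 against 11711 counts and a log2 ratio of -1.73, and Ets1 had 62 against 11143 counts and -6.45. Tbx21, the T-bet gene, had 224 against 3339 counts and -2.86. Tcf7, a factor of stem-like T cells, was at 0 against 1656 counts. Runx3, which CD8 T cells and DCs both use, was called higher in DCs at 1717 counts in treated DCs, 1229 in treated T cells, 1278 in PBS DCs and 1753 in PBS T cells (log2 1.52, 1.42 to 1.63). It was not called with PBS, at a log2 ratio of -0.28. Nfatc2 was the other gene called higher in DCs, at 330 against 249 counts. Neither Runx3 nor Nfatc2 was called with total-count scaling, which moved every ratio by -0.65.

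Outside these lists, Cxcr6, a chemokine receptor of tumour-resident T cells, had 0 counts in treated DCs, 31631 in treated T cells, 0 in PBS DCs and 25481 in PBS T cells. Skap1, an adaptor that links the receptor to adhesion, had 0 against 24577 counts, Thy1 had 1 against 27305 counts, and Il2rb, the beta chain of the IL-2 and IL-15 receptors, had 2 against 24064 counts. The GTPase genes Gimap3 and Gimap4 had 0 against 20416 counts and 0 against 8014 counts. Among genes that reached 20 counts in each library, Icos, a costimulatory receptor, was the furthest towards T cells at 28 against 19697 counts, or 342-fold (237 to 515). Ltb, which encodes lymphotoxin beta, followed at 68 against 41572 counts, or 297-fold. Sh2d2a, an adaptor of T cell signalling, was at 597 against 132536 counts, Gimap6 at 92 against 19616 counts, Septin1 at 89 against 18448 counts and Nmrk1, a kinase of NAD synthesis, at 25 against 5403 counts.

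Ppp1ca, a catalytic subunit of protein phosphatase 1 that most cells carry, was also in this group. It had 139 counts in treated DCs, 23850 in treated T cells, 24609 in PBS DCs and 24275 in PBS T cells. Only the treated DC library was low, so that a log2 ratio of -6.38 (-6.63 to -6.14) with treatment stood beside 0.20 (0.17 to 0.22) with PBS.

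Ccl17 gave the widest separation towards DCs. This chemokine, which draws CCR4-bearing T cells, had 79339 counts in treated DCs, 0 in treated T cells, 12285 in PBS DCs and 23 in PBS T cells. It was at least 44206-fold higher in treated DCs than in treated T cells, and both DC libraries were above both T cell libraries. Ccl6, a myeloid chemokine, had 136973 counts in treated DCs, 283 in treated T cells, 13476 in PBS DCs and 455 in PBS T cells, which is 995-fold higher in treated DCs (885 to 1122). Of 20 chemokine ligand genes, 15 were called higher in treated DCs and 5 in treated T cells, with a median log2 ratio of 4.62. Ccl2 (49028 against 5248 counts, log2 4.26) and Ccl7 (44908 against 2925 counts, log2 4.98), which attract monocytes, were among the 15. Cxcl9 and Cxcl10, interferon-induced ligands of CXCR3, were at 7489 against 67 counts and 5203 against 1359 counts. The 5 called higher in T cells were Ccl4 (6225 against 53716 counts, log2 -2.07), Ccl5 (4035 against 46919 counts, log2 -2.50), Ccl1, Xcl1 and Cxcl11. Ccl4, Ccl5 and Xcl1 are secreted by activated CD8 T cells and recruit myeloid cells.

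Their receptors lay on both sides. Of 14 chemokine receptor genes that passed, 7 (50%) were called higher in treated DCs and 6 (42.9%) in treated T cells (median 0.73). Over all genes these shares were 31.1% and 43.4%. Cxcr3, the receptor for Cxcl9 and Cxcl10, had 0 counts in treated DCs, 2914 in treated T cells, 212 in PBS DCs and 1809 in PBS T cells. Ccr7, which guides cells to lymph nodes, had 1382 counts in treated DCs, 26421 in treated T cells, 8296 in PBS DCs and 16698 in PBS T cells and a log2 ratio of -3.22. Ccr2, the receptor for Ccl2, was called higher in DCs at 4272 against 2043 counts, as was Ccr1 at 4969 against 168 counts. Cxcr3 was thus on the T cell side, as was its ligand Cxcl11 (2 against 104 counts), while its ligands Cxcl9 and Cxcl10 were on the DC side.

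Class II presentation genes lay towards DCs. Of 12 that passed, 11 were called higher in treated DCs and H2-Oa in T cells, with a median log2 ratio of 5.03. H2-Aa, the alpha chain of I-A, had 44805 counts in treated DCs, 149 in treated T cells, 250588 in PBS DCs and 1064 in PBS T cells, a log2 ratio of 9.27 (9.04 to 9.51). H2-Ab1, its beta chain, had 82819 counts in treated DCs, 2225 in treated T cells, 1170633 in PBS DCs and 4112 in PBS T cells, a log2 ratio of 6.26 (6.20 to 6.32). Cd74, the invariant chain, had 26323 counts in treated DCs, 1850 in treated T cells, 254798 in PBS DCs and 2380 in PBS T cells, a log2 ratio of 4.87. Both DC libraries were above both T cell libraries for these genes, and the treated DC library was below the PBS DC library. Ciita, on which class II transcription depends, had 1123 counts in treated DCs, 0 in treated T cells, 2118 in PBS DCs and 1 in PBS T cells. The median of the list was 7.77 with PBS, when 12 of 12 were called higher in DCs. H2-DMb1, which loads peptides, went from a log2 ratio of 7.48 with PBS to 4.04 with treatment. H2-Oa, which restrains H2-DM, had 2 counts in treated DCs, 442 in treated T cells, 737 in PBS DCs and 190 in PBS T cells, so that its call was opposite with PBS and treatment.

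Fc receptors, C-type lectins and their signalling adaptors had 20 of 21 genes called higher in treated DCs and a median log2 ratio of 6.15. Fcer1g, the common Fc receptor gamma chain, had 76163 counts in treated DCs, 2203 in treated T cells, 89924 in PBS DCs and 4616 in PBS T cells, a log2 ratio of 6.15 (6.09 to 6.21). Tyrobp, the adaptor DAP12, had 17592 against 1248 counts (log2 4.86). Clec7a, the beta-glucan receptor Dectin-1, had 17518 counts in treated DCs, 138 in treated T cells, 42344 in PBS DCs and 326 in PBS T cells, and Clec4n, Dectin-2, had 17059 against 1373 counts with treatment. Clec12a, an inhibitory lectin, had 5826 counts in treated DCs, 0 in treated T cells, 7352 in PBS DCs and 149 in PBS T cells and was among the 15 genes furthest towards DCs. Hcst, the adaptor DAP10 that pairs with the receptor of Klrk1, was the member called higher in T cells, at 1377 against 9529 counts (log2 -1.75).

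Other genes furthest towards DCs were Cd300ld at 9507 against 0 counts, the scavenger receptor Msr1 at 4721 against 0 counts, Mcemp1 at 4671 against 0 counts, the lipid amidase Naaa at 4632 against 0 counts and complement C3 at 2714 against 0 counts. Rab7b was at 2674 against 0 counts, Pkib at 2277 against 0 counts, Dpys at 2397 against 0 counts, Cd24a at 2118 against 0 counts, Tnni2 at 2141 against 0 counts and Ctf2 at 5639 against 2 counts. Ctf2 differed between the DC libraries, with 123 counts with PBS. Among genes with 20 counts in both libraries, the 10 furthest included Ccl6, H2-Aa, H2-Eb1 and Mgl2, and also Il1b at 34424 against 130 counts, Bcl2a1a at 7638 against 39 counts, the endocytic adaptor Dab2 at 5115 against 29 counts, Aif1 at 27890 against 212 counts and S100a4 at 6299 against 44 counts. S100a4 had 112 counts in PBS DCs and 156 in PBS T cells, so that this gene separated only the treated libraries. Bcl2a1a belongs to a family of near-identical copies, whose reads can be split between members.

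**Figure D3:**
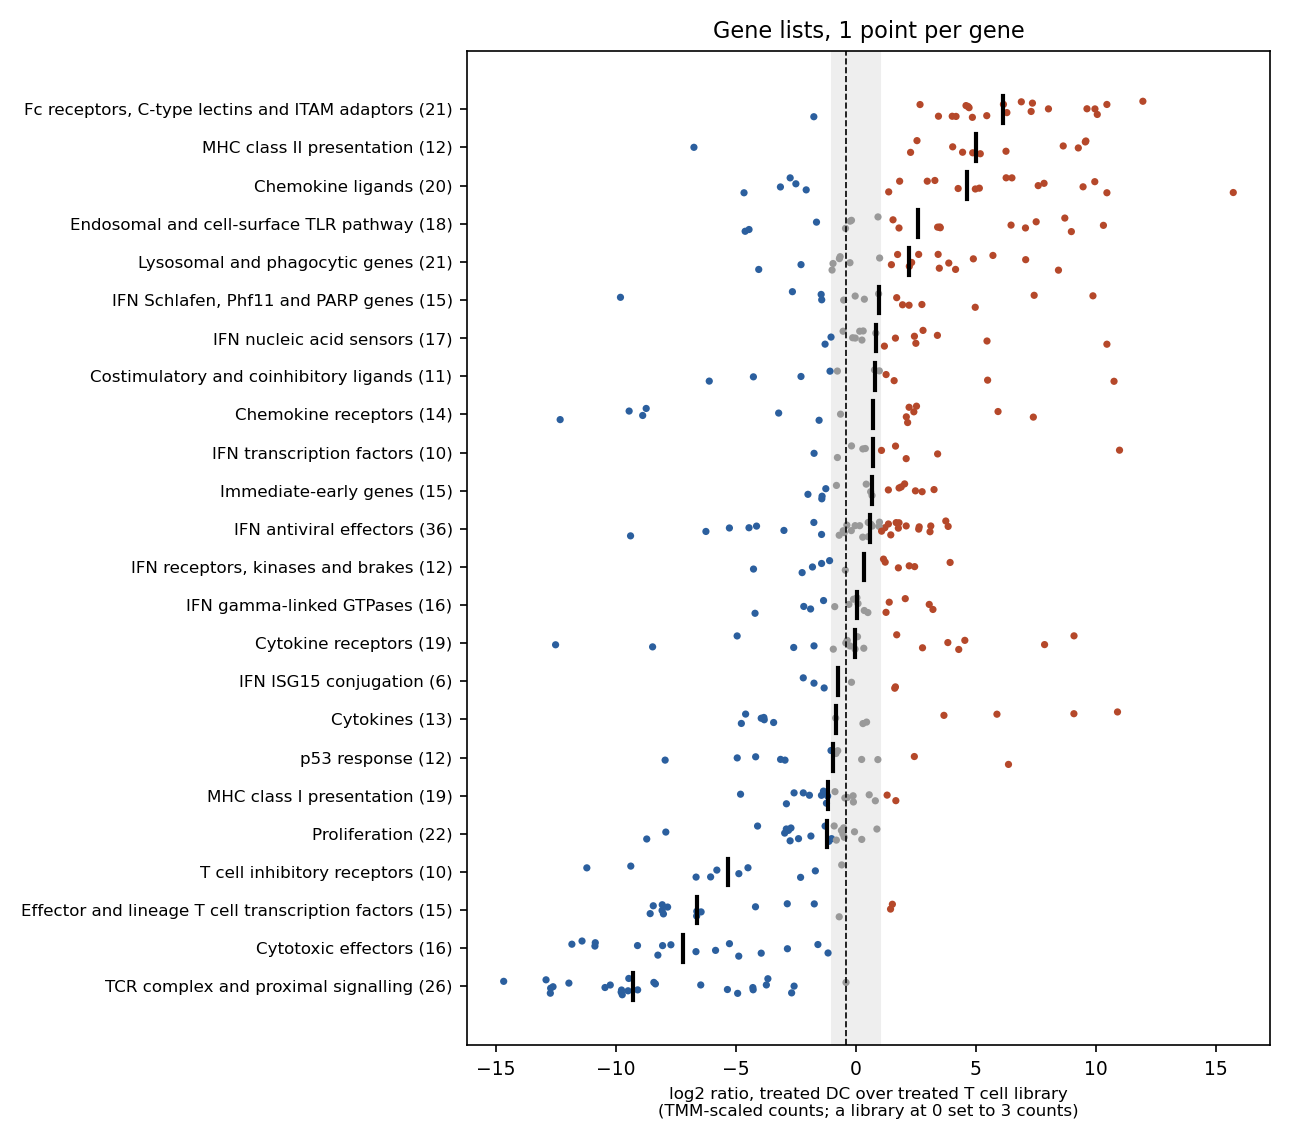
Log2 ratio of treated DC over treated T cell scaled counts (x axis) for the genes of 24 lists (y axis, genes that passed in brackets), 1 point per gene, red where called higher in DCs, blue where called higher in T cells and grey where not called, with list medians as bars and the median of all genes (-0.43) as a dashed line. List medians run from -9.28 for T cell receptor genes to 6.15 for Fc receptors and lectins, and the interferon lists lie between.

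Toll-like receptor genes lay on the DC side, with a median log2 ratio of 2.60. Of 18 genes, 11 (61.1%) were called higher in treated DCs and 3 (16.7%) in T cells, beside 31.1% and 43.4% of all genes. Tlr7, the receptor for which IMDQ is an agonist, had 474 counts in treated DCs, 11 in treated T cells, 142 in PBS DCs and 105 in PBS T cells, a log2 ratio of 6.47 (5.62 to 7.48) with treatment and 0.61 with PBS. Tlr2, a receptor for lipoproteins, had 3106 against 5 counts, and Cd14, a coreceptor for lipopolysaccharide, had 8166 counts in treated DCs, 1484 in treated T cells, 178473 in PBS DCs and 1472 in PBS T cells. Tlr7 was thus highest in treated DCs, while Cd14 was highest in PBS DCs. Unc93b1, which carries Tlr7 to endosomes, was not called (472 against 1308 counts, log2 -0.43), nor was the adaptor Myd88 (500 against 1212 counts, log2 -0.24). Tlr8 and Tlr9, which are also endosomal receptors, stayed below the minimum with 1 against 2 counts and 8 against 0 counts.

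Of 21 lysosomal and phagocytic genes, 13 were called higher in treated DCs and 2 in T cells (median 2.23). Lyz2, lysozyme, had 54737 counts in treated DCs, 10445 in treated T cells, 836671 in PBS DCs and 11946 in PBS T cells, and Ctss, the protease that cuts the invariant chain, had 50979 counts in treated DCs, 4801 in treated T cells, 204856 in PBS DCs and 3833 in PBS T cells. Ctsz was called higher in DCs at 11236 against 4927 counts. Cyba, a subunit of the NADPH oxidase, was not called (20315 against 49516 counts, log2 -0.25), and Ctsb, cathepsin B, was just inside the 2-fold limit (4190 against 17129 counts, log2 -0.99) and past it with total-count scaling, whereas it was 2.55 with PBS.

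Class I presentation genes were divided. Of 19 genes, 10 were called higher in treated T cells, beside 43.4% of all genes, 2 in DCs and 7 were not called, with a median log2 ratio of -1.18, against -0.11 with PBS. H2-K1, a classical class I heavy chain, had 22301 counts in treated DCs, 107190 in treated T cells, 55529 in PBS DCs and 78919 in PBS T cells, a log2 ratio of -1.23 (-1.25 to -1.20). H2-D1 had 21965 counts in treated DCs, 105337 in treated T cells, 82011 in PBS DCs and 79958 in PBS T cells, a log2 ratio of -1.22 (-1.24 to -1.20). B2m, the light chain that all class I molecules share, had 66320 counts in treated DCs, 92683 in treated T cells, 52752 in PBS DCs and 94610 in PBS T cells, a log2 ratio of 0.56 (0.54 to 0.57). The light chain was thus shared while both heavy chains were called higher in T cells. Nlrc5, the class I counterpart of Ciita, had 834 counts in treated DCs, 12747 in treated T cells, 2181 in PBS DCs and 6119 in PBS T cells, a log2 ratio of -2.89. Psmb8, an immunoproteasome subunit, was called higher in DCs (13625 against 11352 counts, log2 1.30), though not with total-count scaling, and its partner Psmb9 in T cells (1929 against 10109 counts, log2 -1.35). Class I heavy chain genes resemble each other, so reads can be split between copies.

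Ligands that T cells read were divided, with a median log2 ratio of 0.78. Of 11 genes, 4 (36.4%) were called higher in treated DCs and 4 (36.4%) in treated T cells. These shares were near the 31.1% and 43.4% of all genes. Cd86, a ligand of CD28, had 8712 counts in treated DCs, 398 in treated T cells, 3388 in PBS DCs and 855 in PBS T cells, a log2 ratio of 5.49 (5.35 to 5.64). Cd40, the receptor by which T cells license DCs, had 2532 counts in treated DCs, 0 in treated T cells, 2318 in PBS DCs and 5 in PBS T cells. Cd274, which encodes PD-L1, had 1510 against 1296 counts (log2 1.26) and was not called with total-count scaling. Pdcd1lg2, which encodes PD-L2, was called higher in T cells at 208 counts in treated DCs, 2086 in treated T cells, 3401 in PBS DCs and 2085 in PBS T cells. The order of the DC and T cell libraries for Pdcd1lg2 was not called with PBS. Cd48 was shared with TMM at 2317 against 8123 counts and called higher in T cells with total-count scaling, and Lgals9, galectin 9, was called higher in T cells at 1477 against 6403 counts (log2 -1.08).

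Of 20 cytokine genes 13 passed, with 4 (30.8%) called higher in treated DCs and 6 (46.2%) in treated T cells. These shares were near the 31.1% and 43.4% of all genes. The median was -0.84, or 0.37 among genes with 20 counts in both libraries, against 4.44 with PBS. Il1b had 34424 counts in treated DCs, 130 in treated T cells, 43872 in PBS DCs and 415 in PBS T cells, and Il1rn, the antagonist of its receptor, had 3763 against 607 counts with treatment. Both were called higher in DCs. Ifng, which encodes interferon-gamma, had 185 counts in treated DCs, 5855 in treated T cells, 0 in PBS DCs and 3456 in PBS T cells, a log2 ratio of -3.94 (-4.16 to -3.73). Tnf was shared at 1071 against 1615 counts. Il12b, a subunit of IL-12, was at 0 in both treated libraries and had 592 against 0 counts with PBS, and Il10 was at 0 against 1 count. Of 19 cytokine receptor genes, 7 (36.8%) were called higher in DCs and 5 (26.3%) in T cells. They included the growth factor receptor Csf1r (3453 against 13 counts) and the decoy Il1r2 (11643 against 3488 counts) on the DC side, while Il2rg, the common gamma chain, was shared with TMM and called higher in T cells with total-count scaling (3579 against 9442 counts, log2 -0.36). Il7r was shared (2972 against 7229 counts, log2 -0.24).

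Proliferation genes had 13 of 22 (59.1%) called higher in treated T cells and none in DCs (median -1.20), beside 43.4% and 31.1% of all genes. Tubb5 had 5775 counts in treated DCs, 92783 in treated T cells, 72565 in PBS DCs and 71973 in PBS T cells, a log2 ratio of -2.97, Stmn1 had 590 against 6354 counts and Rrm2, a subunit of the enzyme that makes deoxynucleotides, had 142 against 4994 counts. Mki67, a marker of cycling cells, was shared at 558 against 967 counts (log2 0.25, 0.09 to 0.40). Of 12 genes of the p53 response, 6 (50%) were called higher in T cells and 2 (16.7%) in DCs (median -0.93). Over all genes these shares were 43.4% and 31.1%. Cdkn1a, the p53 target that encodes p21, was shared with treatment at 6152 counts in treated DCs, 10697 in treated T cells, 26427 in PBS DCs and 1725 in PBS T cells, and its ratio was 0.24 with treatment against 4.11 with PBS. Btg2 was called higher in T cells at 2093 against 8817 counts, Bax was called higher in T cells with total-count scaling alone (1258 against 4365 counts), and Pmaip1, the Noxa gene, was called higher in DCs at 2322 against 881 counts. Of 15 immediate-early genes, 7 (46.7%) were called higher in DCs, 4 (26.7%) in T cells and 4 in neither (median 0.67). Fos was on the DC side (12852 against 4725 counts, log2 2.48), and Junb (7364 against 40485 counts, log2 -1.42), Dusp1 (7395 against 36215 counts, log2 -1.25) and Nr4a1 (3425 against 28101 counts, log2 -2.00) were on the T cell side.

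Genes of the general translation and respiration machinery also separated the treated libraries. Of 81 cytosolic ribosomal protein genes, 51 were called higher in treated DCs and 2 in treated T cells, with a median log2 ratio of 1.78, against 2 and 24 with PBS and a median of -0.58. They made up 10.2% of counts in treated DCs and 6.23% in treated T cells. Of 12 mitochondrially encoded genes that passed, 12 were called higher in treated DCs (median 3.49, against -0.51 with PBS), with 1.203% against 0.484% of counts. The part of these shares in the other ratios of the treated DC library was not tested.

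Interferon genes lay on both sides of the comparison and between them. Of 124 listed genes in the tables, on 8 lists by role, 113 passed, of which 38 (33.6%) were shared, 47 (41.6%) were called higher in treated DCs and 28 (24.8%) in treated T cells. Over all genes these shares were 25.3%, 31.1% and 43.4%. The median log2 ratio of the 113 genes was 0.40 with TMM and -0.25 with total-count scaling, so that the side on which the interferon genes lie as a group changes sign with the scaling. Of their calls, 62.7% were higher in DCs with TMM and 49.3% with total-count scaling, when 36 were higher in DCs and 37 in T cells. The number shared was 40 with total-count scaling, of which 29 were among the 38. That scaling ended the DC call of Irf1, Cmpk2, Eif2ak2, Jak2, Samhd1, Herc6, Ifi203, Irgm1, Oas1g, Tgtp1 and Ptpn6, and turned the shared genes Irf4, Ifnar2, Sp100, Trim30a, Mavs, Xaf1, Ifi47, Tgtp2 and Phf11b into genes called higher in T cells. The listed genes summed to 16455 CPM in treated DCs, 15094 CPM in treated T cells, 10198 CPM in PBS DCs and 8831 CPM in PBS T cells.

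The genes higher in both treated libraries than in the PBS library of the same cell type were counted next. This held for 34 of the 108 interferon genes measured in both cell types (31.5%), against 508 of 9052 genes (5.61%) overall. Of these 34, 14 were shared between treated DCs and treated T cells, 18 were called higher in DCs and 2 in T cells. Calls went in opposite directions for 10 of the 108 (9.26%), against 1327 genes (14.7%) overall. Treated over PBS calls were higher for 30.2% and lower for 41.8% of 10316 genes in the DC libraries (72.0% in all), and higher for 18.3% and lower for 25.4% of 11058 genes in the T cell libraries (43.7% in all). Both cell types were called lower with treatment for 6.08% of genes.

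Promoters are shown for 5 members that stand for the 3 outcomes, because many interferon genes carry the interferon-stimulated response element, to which IRF9 complexes bind, just before their start. The motif searched was GAAA, any 2 bases and GAAA again, on both strands, and capitals mark it below (on the opposite strand it reads TTTC, any 2 bases and TTTC). Sequences are the 250 bases before the gene start in the RefSeq promoter table, build GRCm38.p6, which is not the build named for the count tables. Ifit3 (chr19:34583279-34583528, plus strand) and Ifit1 (chr19:34640639-34640888, plus strand) were shared, Ifit3b (chr19:34607707-34607956, plus strand) and Isg15 (chr4:156200819-156201068, minus strand) were called higher in treated T cells, and Ifi207 (chr1:173741810-173742059, minus strand) was called higher in treated DCs. Each window is written 5′ to 3′ on the strand of its gene.
Ifit3: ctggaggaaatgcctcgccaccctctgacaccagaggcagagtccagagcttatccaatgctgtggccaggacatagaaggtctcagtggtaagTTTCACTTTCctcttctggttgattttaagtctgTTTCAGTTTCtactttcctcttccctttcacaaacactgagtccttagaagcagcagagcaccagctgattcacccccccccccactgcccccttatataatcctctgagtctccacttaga
Ifit3b: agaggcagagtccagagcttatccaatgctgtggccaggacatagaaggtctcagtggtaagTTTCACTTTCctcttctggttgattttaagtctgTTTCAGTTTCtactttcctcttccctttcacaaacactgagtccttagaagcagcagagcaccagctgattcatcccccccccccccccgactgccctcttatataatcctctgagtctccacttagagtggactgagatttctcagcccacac
Ifit1: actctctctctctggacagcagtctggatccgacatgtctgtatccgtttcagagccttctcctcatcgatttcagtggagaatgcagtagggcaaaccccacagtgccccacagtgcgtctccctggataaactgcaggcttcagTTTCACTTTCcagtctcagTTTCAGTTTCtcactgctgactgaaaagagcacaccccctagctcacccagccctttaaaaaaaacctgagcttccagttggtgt
Isg15: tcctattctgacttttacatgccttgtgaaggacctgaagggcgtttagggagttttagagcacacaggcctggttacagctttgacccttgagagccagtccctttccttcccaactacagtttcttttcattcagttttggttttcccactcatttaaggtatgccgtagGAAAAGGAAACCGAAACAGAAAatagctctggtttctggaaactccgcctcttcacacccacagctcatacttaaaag
Ifi207: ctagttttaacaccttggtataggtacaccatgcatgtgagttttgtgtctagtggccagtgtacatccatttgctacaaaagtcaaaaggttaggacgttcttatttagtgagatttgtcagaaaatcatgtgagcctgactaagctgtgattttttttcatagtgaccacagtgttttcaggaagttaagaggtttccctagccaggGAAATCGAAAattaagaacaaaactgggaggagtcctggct

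The windows of Ifit3 and Ifit3b share an unbroken run of 169 identical bases, so that neighbouring copies with matching promoters fell into different classes. Of the 113 interferon genes, 87 matched the table, with 101 windows. The motif was in 39 of the 101 windows (38.6%), against 2.98% of all 32851 windows of that length. It was in 15 of 35 windows of shared genes (42.9%), 16 of 41 windows of genes called higher in DCs (39.0%) and 8 of 25 windows of genes called higher in T cells (32.0%). A match is a description of letters and not a bound site.

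The Ifit genes, whose proteins bind foreign RNA, were mostly shared. Ifit3 had 1790 counts in treated DCs, 3759 in treated T cells, 693 in PBS DCs and 405 in PBS T cells. Its log2 ratio between the treated libraries was -0.03 (-0.11 to 0.05), and it was higher with treatment in both cell types, by 2.19 in DCs and 3.20 in T cells. Ifit1 had 622 counts in treated DCs, 1048 in treated T cells, 179 in PBS DCs and 186 in PBS T cells, with a log2 ratio of 0.29 (0.14 to 0.43) and treatment ratios of 2.62 and 2.48. Ifit2 had 648 counts in treated DCs, 862 in treated T cells, 79 in PBS DCs and 53 in PBS T cells, with 0.63 (0.48 to 0.78) and treatment ratios of 3.86 and 4.01. For these 3 genes both treated libraries were above both PBS libraries, in counts and after scaling within a cell type. Ifit3b had 29 counts in treated DCs, 1306 in treated T cells, 0 in PBS DCs and 463 in PBS T cells, with a log2 ratio of -4.45 (-5.04 to -3.92). Ifit3 and Ifit3b are near-identical copies, and their split of reads is uncertain. Ifit1bl1 was at 0 against 469 counts.

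The Mx genes, which encode GTPases that trap viral particles, were absent or nearly absent with PBS and shared with treatment. Mx1 had 779 counts in treated DCs, 995 in treated T cells, 0 in PBS DCs and 30 in PBS T cells, a log2 ratio of 0.69 (0.55 to 0.82). Mx2 had 212 counts in treated DCs, 305 in treated T cells, 0 in PBS DCs and 0 in PBS T cells, a log2 ratio of 0.51 (0.25 to 0.77). Both treated libraries were high and both PBS libraries low for each of them. Ifi44 was 0 or low with PBS too, but was called higher in DCs, at 1040 counts in treated DCs, 159 in treated T cells, 0 in PBS DCs and 10 in PBS T cells and a log2 ratio of 3.75.

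Among the 36 antiviral effector genes, 14 were shared, 14 were called higher in treated DCs and 8 in T cells (median 0.57 with TMM and -0.07 with total-count scaling), and 17 of 35 measured in both cell types were higher with treatment in both. Rtp4 had 2352 counts in treated DCs, 5510 in treated T cells, 755 in PBS DCs and 406 in PBS T cells, a log2 ratio of -0.19 (-0.26 to -0.12). Isg20, an exonuclease, had 2796 counts in treated DCs, 4021 in treated T cells, 1140 in PBS DCs and 1876 in PBS T cells, a log2 ratio of 0.52. Bst2, tetherin, was close to the limit of the shared class at 5709 counts in treated DCs, 5984 in treated T cells, 4606 in PBS DCs and 2876 in PBS T cells and a log2 ratio of 0.97 (0.92 to 1.02). Trim30a (808 against 2688 counts, log2 -0.69) and Sp100 (2220 against 6579 counts, log2 -0.53) completed the shared effectors that were higher with treatment in both cell types. Xaf1 (-0.38), Ifi47 (-0.48), Tor3a (0.98) and Oas1a (0.16) were shared without that call.

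The effectors called higher in DCs included the membrane proteins Ifitm1, Ifitm2 and Ifitm3, which block viral entry. Ifitm3 had 32906 counts in treated DCs, 4702 in treated T cells, 35755 in PBS DCs and 4100 in PBS T cells, a log2 ratio of 3.85 (3.80 to 3.89), and both DC libraries were above both T cell libraries. Ifitm1 had 36520 counts in treated DCs, 21990 in treated T cells, 30364 in PBS DCs and 29017 in PBS T cells and was called with treatment (1.77) but not with PBS (0.24). Ifi27l2a had 30765 counts in treated DCs, 19742 in treated T cells, 5336 in PBS DCs and 6282 in PBS T cells, a log2 ratio of 1.68. The oligoadenylate synthetases Oas2 (640 against 151 counts, log2 3.12) and Oas3 (1409 against 340 counts, log2 3.09), which activate RNase L, and the related Oasl1 (1068 against 513 counts, log2 2.10) and Oasl2 (1671 against 551 counts, log2 2.64) were on the same side. Rsad2, viperin, had 1145 counts in treated DCs, 383 in treated T cells, 504 in PBS DCs and 202 in PBS T cells, a log2 ratio of 2.62. Eif2ak2 (1.36), Samhd1 (1.46), Cmpk2 (1.07) and Oas1g (1.21) completed the effectors on the DC side. Oas1a and Oas1g are close copies whose reads can be split.

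The effectors called higher in T cells included Ifi27, with 0 counts in treated DCs, 4139 in treated T cells, 2380 in PBS DCs and 3843 in PBS T cells. It was at least 546-fold higher in treated T cells, and only the treated DC library was at 0. Lgals3bp, a secreted glycoprotein, had 486 counts in treated DCs, 7977 in treated T cells, 6043 in PBS DCs and 4722 in PBS T cells, a log2 ratio of -3.00 against 0.53 with PBS. Ifi35 had 701 counts in treated DCs, 4848 in treated T cells, 3904 in PBS DCs and 1688 in PBS T cells, a log2 ratio of -1.75 against 1.39 with PBS. Pml (18 against 652 counts), Rnf213 (672 against 3720 counts) and Oas1b (0 against 238 counts) were also on the T cell side.

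The ISG15 conjugation genes, which attach the ubiquitin-like protein ISG15 to other proteins, had the largest move of a list median from DCs towards T cells among the 8 interferon lists. Their median log2 ratio was 1.66 with PBS, when 4 of 6 were called higher in DCs, and -0.75 with treatment, when 3 were called higher in T cells and 2 in DCs. Isg15 had 413 counts in treated DCs, 2121 in treated T cells, 1354 in PBS DCs and 498 in PBS T cells, a log2 ratio of -1.32 (-1.48 to -1.17) with treatment and 1.62 with PBS. Treated T cells were above PBS T cells for Isg15, while the treated DC library was below the PBS DC library. The conjugating enzyme Ube2l6 had 456 counts in treated DCs, 4282 in treated T cells, 4368 in PBS DCs and 1527 in PBS T cells, a log2 ratio of -2.19 with treatment and 1.69 with PBS. The activating enzyme Uba7 was called higher in T cells (335 against 2308 counts, log2 -1.74). Usp18, the protease that removes ISG15, was shared with treatment at 811 counts in treated DCs, 1891 in treated T cells, 826 in PBS DCs and 84 in PBS T cells, and its ratio went from 3.47 with PBS to -0.18. The ligases Herc6 (359 against 240 counts, log2 1.62) and Trim25 (1178 against 772 counts, log2 1.65) were called higher in DCs.

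Of 17 nucleic acid sensor genes, 8 were called higher in treated DCs, 2 in treated T cells and 7 were shared (median 0.83). Ddx58, which encodes the RNA sensor RIG-I, was shared at 594 counts in treated DCs, 1092 in treated T cells, 279 in PBS DCs and 393 in PBS T cells and a log2 ratio of 0.16 (0.01 to 0.31). Its relatives Ifih1, the MDA5 gene (789 against 517 counts, log2 1.65), and Dhx58 (1091 against 413 counts, log2 2.44) were called higher in DCs, as was the DNA sensor Cgas (380 counts in treated DCs, 138 in treated T cells, 259 in PBS DCs and 8 in PBS T cells, log2 2.50). Sting1, which acts after Cgas, was shared at 1211 against 2533 counts (log2 -0.03), and Mavs, which acts after RIG-I, at 246 against 731 counts (log2 -0.53). Ddx58 and both adaptors were thus within 2-fold, while Ifih1, Dhx58 and Cgas lay towards DCs. Zbp1, which senses nucleic acids in the Z conformation, was called higher in T cells at 1476 against 6215 counts (log2 -1.03, -1.12 to -0.95).

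The Ifi200 family of DNA-binding proteins split within itself. Ifi207 had 2061 counts in treated DCs, 0 in treated T cells, 370 in PBS DCs and 0 in PBS T cells. This gene was at least 1147-fold higher in treated DCs than in treated T cells. Ifi205 (2495 against 116 counts, log2 5.47), Ifi204 (1822 against 355 counts, log2 3.40), Ifi211 (1023 against 302 counts, log2 2.80) and Ifi203 (1913 against 1724 counts, log2 1.19) were also called higher in DCs. Ifi213 (1507 against 3398 counts, log2 -0.13), Ifi209 (2425 against 2802 counts, log2 0.83), Mndal (1220 against 2104 counts, log2 0.25) and Aim2, an inflammasome sensor (193 against 321 counts, log2 0.31), were shared. Ifi208 was called higher in T cells, at 353 counts in treated DCs, 1766 in treated T cells, 1 in PBS DCs and 725 in PBS T cells. Members of this family resemble each other, so reads can be split between them.

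Of 15 Schlafen, Phf11 and PARP genes, 7 were called higher in treated DCs, 4 in T cells and 4 were shared (median 0.95). The Schlafen genes split within the family. Slfn4 (1377 counts in treated DCs, 0 in treated T cells, 2 in PBS DCs and 8 in PBS T cells), Slfn5 (1255 against 82 counts, log2 4.98) and Slfn8 (688 against 367 counts, log2 1.95) were called higher in DCs, and Slfn1 (459 against 2530 counts, log2 -1.42) and Slfn2 (712 against 3988 counts, log2 -1.45) in T cells. Phf11d (252 against 0 counts) and Phf11c (1 against 1846 counts) lay on opposite sides, with Phf11a (0.95) and Phf11b (-0.51) shared. Parp9 (763 counts in treated DCs, 482 in treated T cells, 41 in PBS DCs and 172 in PBS T cells) was called higher in DCs with treatment and in T cells with PBS, and its partner Dtx3l (134 against 1722 counts, log2 -2.64) was called higher in T cells. Parp14 (1841 against 814 counts, log2 2.22) and Parp12 (538 against 164 counts, log2 2.75) were on the DC side, and Parp10 (-0.03) and Parp11 (0.35) were shared.

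Of 10 interferon transcription factor genes, 5 were called higher in treated DCs, 1 in T cells and 4 were shared (median 0.73). Stat2, a partner of IRF9 in type I signalling, had 1012 counts in treated DCs, 486 in treated T cells, 547 in PBS DCs and 372 in PBS T cells, a log2 ratio of 2.10 (1.94 to 2.26). Irf9 had 823 counts in treated DCs, 5657 in treated T cells, 2567 in PBS DCs and 1918 in PBS T cells, a log2 ratio of -1.74 (-1.85 to -1.64). Stat2 was thus called higher in DCs and Irf9 in T cells, while neither was called with PBS, at ratios of 0.73 and 0.60.

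Irf7, which amplifies the type I response, was shared at 3113 counts in treated DCs, 5228 in treated T cells, 1223 in PBS DCs and 1216 in PBS T cells, a log2 ratio of 0.29 (0.23 to 0.36). It was the 1 factor higher with treatment in both cell types, by 2.17 in DCs and 2.09 in T cells. Irf8, a factor of cDC1s and of effector T cells, was shared at 2153 against 3365 counts (log2 0.40), as were Irf4 (372 against 1302 counts, log2 -0.77) and Irf2 (402 against 937 counts, log2 -0.18). Irf5, which acts after TLR7, was called higher in DCs at 5345 against 1035 counts (log2 3.41), and Irf1 was close to the limit at 2670 against 2617 counts (log2 1.07, 0.99 to 1.15). Batf2 had 989 counts in treated DCs, 1 in treated T cells, 697 in PBS DCs and 216 in PBS T cells, with a log2 ratio of 10.99 (8.51 to 16.29) that rests on 1 count in treated T cells.

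**Figure D4:**
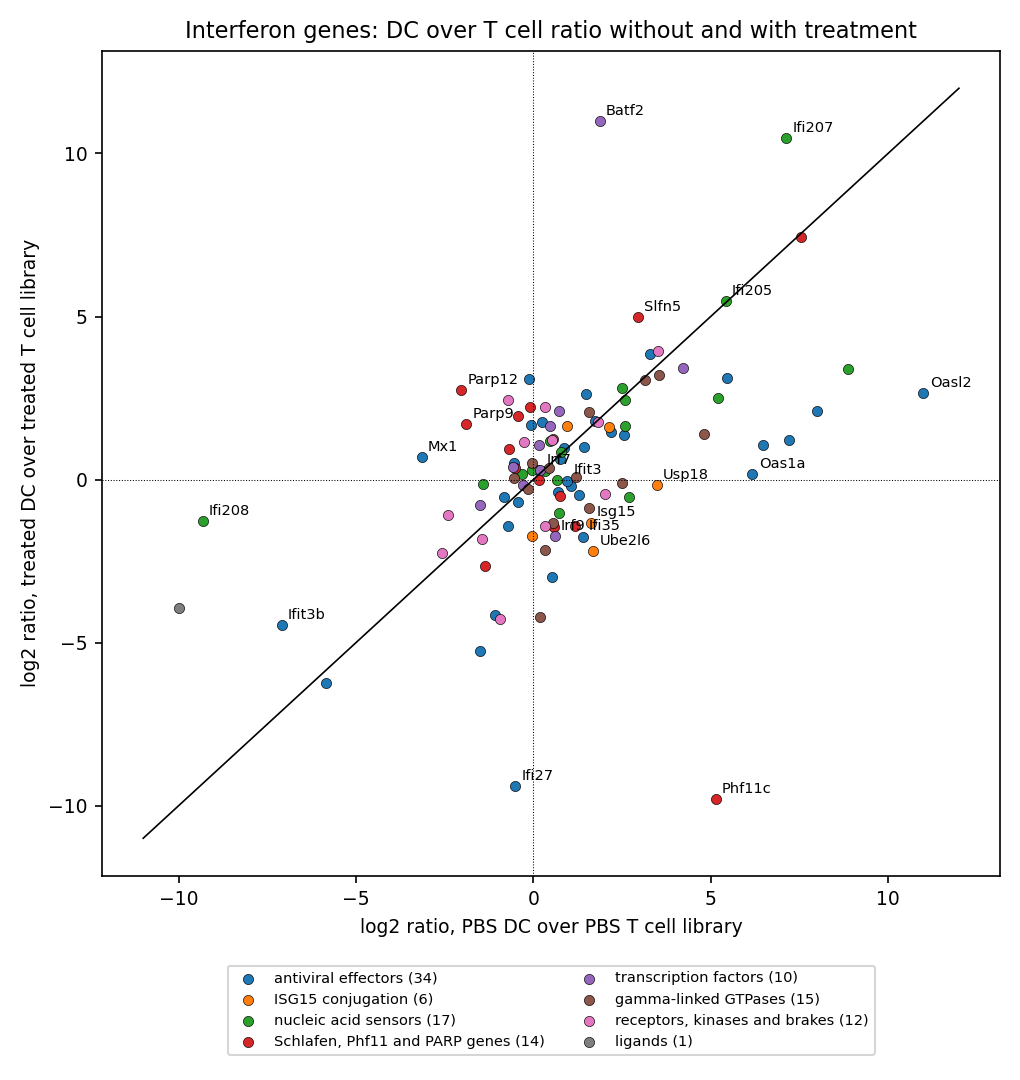
Log2 ratio of DC over T cell scaled counts for 109 interferon genes with PBS (x axis) and with treatment (y axis), 1 point per gene, coloured by role, with equality as a line. Isg15, Ube2l6, Irf9 and Usp18 lie below the line, Mx1, Parp9 and Parp12 lie above it, and 7 of the 109 genes were called in opposite directions.

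The receptors, kinases and brakes of the pathway were mostly separated, with 6 of 12 called higher in treated DCs, 5 in T cells and 1 shared (median 0.36 with TMM and -0.29 with total-count scaling), and none of the 12 was higher with treatment in both cell types. The chains of the interferon-gamma receptor lay on opposite sides. Ifngr1, the binding chain, had 541 counts in treated DCs, 21392 in treated T cells, 6760 in PBS DCs and 14727 in PBS T cells, a log2 ratio of -4.27 (-4.39 to -4.14). Ifngr2, the signalling chain, had 1141 counts in treated DCs, 154 in treated T cells, 1446 in PBS DCs and 144 in PBS T cells, a log2 ratio of 3.93 (3.68 to 4.18). Ifngr1 was thus low in treated DCs alone, while Ifngr2 was low in both T cell libraries. Of the type I receptor, Ifnar1 was called higher in T cells (847 against 4686 counts, log2 -1.43) and Ifnar2 was shared (218 against 608 counts, log2 -0.44).

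The kinase Jak1 was called higher in T cells (1109 against 7982 counts, log2 -1.81), and Jak2 (704 against 620 counts, log2 1.22) and Tyk2 (646 against 243 counts, log2 2.45) in DCs. The feedback inhibitors Socs1 (139 against 1349 counts, log2 -2.24) and Cish (1166 against 5120 counts, log2 -1.10) were called higher in T cells, and Socs3 (2054 against 1236 counts, log2 1.77) in DCs. The phosphatases Ptpn2 (1641 against 722 counts, log2 2.22) and Ptpn6 (4102 against 3794 counts, log2 1.15), which switch the kinases off, were on the DC side.

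Of 16 GTPase genes linked to interferon-gamma, 7 were shared, 5 were called higher in treated DCs and 4 in T cells, and their median log2 ratio was 0.07 with TMM and -0.58 with total-count scaling. The shared members were Gbp4 (0.50), Gbp5 (0.09), Gbp6 (0.35), Gbp8 (0.04), Gbp9 (-0.29), Igtp (-0.10) and Tgtp2 (-0.88). Gbp6, a guanylate-binding protein, had 666 counts in treated DCs, 1074 in treated T cells, 497 in PBS DCs and 415 in PBS T cells and was higher with treatment in both cell types. Igtp had 2070 counts in treated DCs, 4559 in treated T cells, 5216 in PBS DCs and 1039 in PBS T cells, and its ratio was 2.50 with PBS. Gbp2 (3765 against 929 counts, log2 3.06) and Iigp1 (1155 against 256 counts, log2 3.21) were furthest towards DCs, with Gbp3 (2.06), Tgtp1 (1.39) and Irgm1 (1.26) on the same side. Gbp7 (404 against 2112 counts, log2 -1.35), Gbp10 (6 against 227 counts), Irgm2 (86 against 796 counts, log2 -2.17) and Gvin1 (10 against 76 counts) were on the T cell side. Gbp and Tgtp copies resemble each other, so reads can be split between them.

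Of 10 listed interferon ligand genes, Ifng was the 1 that passed in the treated libraries, with the values given above. Ifnk, a type I ligand, had 45 counts in PBS DCs and 0 in the other libraries. Ifna1, Ifna2, Ifna4 and Ifna5 had 0 counts in all 4 libraries, and Ifnb1 had 1 count in treated DCs and 0 in the others. Apart from that 1 count, the listed type I ligand genes were not detectable in either treated library, within the limits of 0.213 and 0.162 CPM given above. Type I ligand genes outside the list were not examined.

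**Figure D5:**
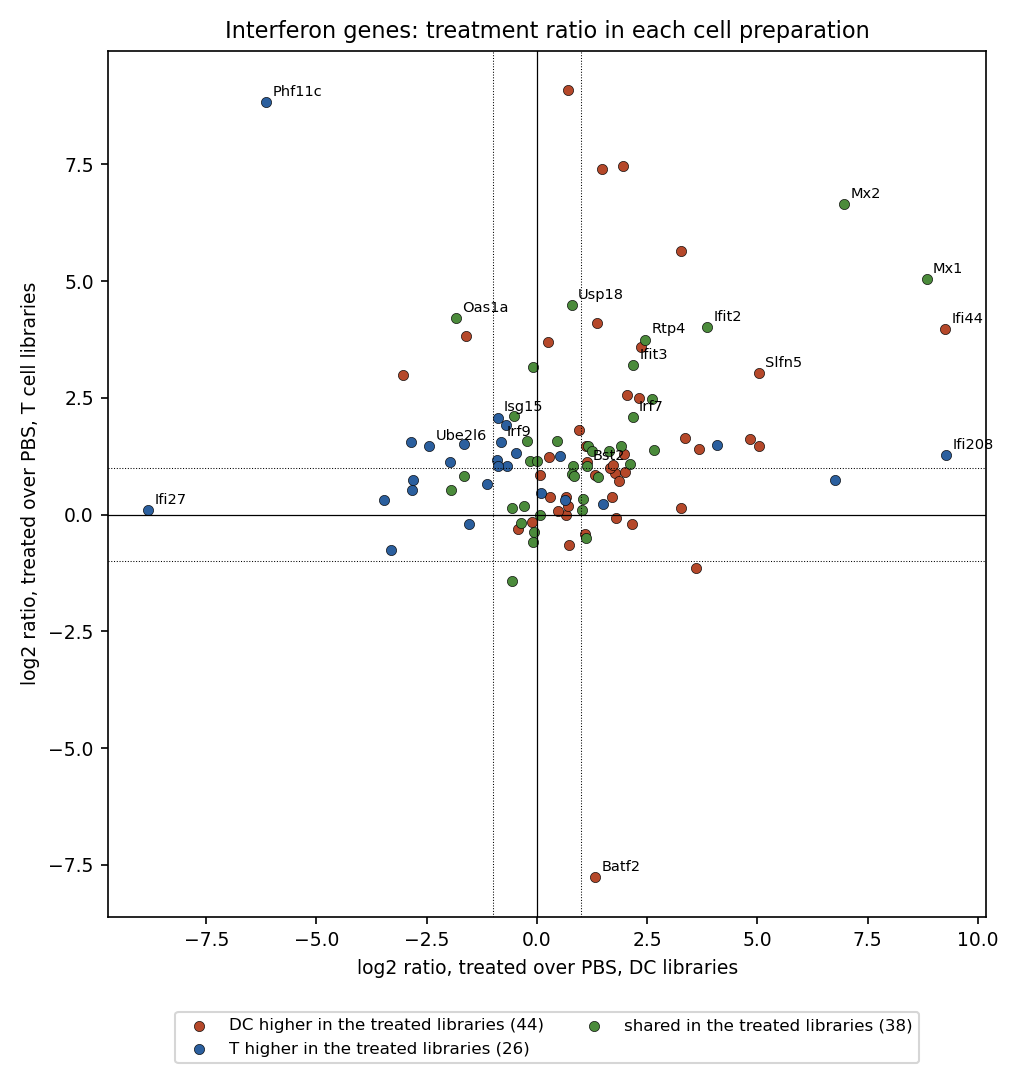
Log2 ratio of treated over PBS scaled counts in the DC libraries (x axis) and the T cell libraries (y axis) for 108 interferon genes, 1 point per gene, coloured by whether the gene was called higher in treated DCs, called higher in treated T cells or shared, with 2-fold limits dotted. Mx1, Mx2, Ifit2, Ifit3, Rtp4 and Irf7 lie in the upper right, where both ratios are positive, and Phf11c and Oas1a lie in the upper left.

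The DC over T cell ratio of the interferon genes was then set against the same ratio with PBS. Of 109 genes measured in both comparisons, 7 were called in opposite directions, against 12.9% of all genes. By at least 1 on the log2 scale, 39 moved towards T cells and 24 towards DCs. Over all 9984 genes measured in both comparisons, 3840 moved that far towards T cells and 3412 towards DCs. These movements use the same treated libraries as the ratios above and are not separate evidence. Among the 38 shared genes, 24 were also not called with PBS, 10 were called higher in PBS DCs, 3 in PBS T cells and 1 was not measured. Of the 9984 genes, shared or not, 5654 were called with PBS. Of the 47 genes called higher in treated DCs, 28 were called that way with PBS, and of the 28 called higher in treated T cells, 10 were. The genes that separated the cell types in both conditions included Ifitm3, Ifi204, Ifi205, Gbp2, Iigp1, Irf5 and Ifngr2 on the DC side and Ifit3b, Ifit1bl1, Socs1, Jak1 and Cish on the T cell side.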

How the data were processed

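BGI extracted the RNA, built the libraries and sequenced them, per the labels' protocols. According to the submitters' processing notes, the build was GRCm39 and the tools were DESeq2 1.24.0, RSEM 1.2.12, HISAT2 2.0.4 and R 3.3.1. Their steps and the strand setting are not given in the sources used here. Whole-number counts per gene and FPKM were deposited in 1 table per cell type. The deposited FPKM equal the counts scaled by listed gene length and column total, within a relative difference of 2.04e-07. The PBS samples are numbered 2 in their titles and 1 in their descriptions, and the treated DC sample 1 in its title and 4 in its description. Columns were matched by description. The 4 columns of 2 further libraries matched no sample and were not used here.

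Counts as deposited were scaled for each pair of libraries with TMM (edgeR 4.0.16 in R 4.3.3), and intervals were computed with scipy 1.17.1. The ratio and its interval were run on simulated counts that held counting error alone and were scaled by library totals. Such counts cannot test TMM or any spread between libraries. No p-values were computed, for lack of replicates. A call needed a 2-fold ratio and a 95% interval excluding 0, with at least 20 counts in either library. Alternatives were total-count CPM, DESeq2 1.42.0 size factors, upper-quartile scaling, the deposited FPKM, TMM without ribosomal, mitochondrial and receptor genes, minimum counts of 1, 100 or 20 in both libraries, log2(CPM + 1), and 1.5-fold, 4-fold and 8-fold thresholds. Ratios of the deposited FPKM equal those of total-count CPM, so that alternative is no separate check. Centring on the median of genes with 20 counts in both libraries was added after seeing the data.

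The comparison and its 25 programme lists and 20 marker lists (539 genes, 536 in the tables) were chosen with earlier results of these data known. Named genes were the 15 furthest each way (ranked on the inner interval limit, 100 counts or more in the higher library), without gene models, receptor segments, ribosomal and mitochondrial genes, the 10 furthest each way with 20 counts in both libraries, the 4 members of each programme list with the most counts, every measured interferon gene and defining markers. Further list members, among them Tlr7, Ciita, Runx3, Nfatc2, Cxcr3, Cxcl9, Cxcl10, Nlrc5, Mki67 and Il12b, were named after their values were seen. Values of 2 listed genes and of a second promoter motif are not reported here.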

Additional observations from a re-analysis of the deposited data

Results flagged for a closer look

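For 10 interferon genes the treated over PBS ratio was called in opposite directions in the DC and T cell libraries. The difference itself was not tested, since each ratio rests on 1 library per group. For 8 of the 10 the ratio was negative in DCs and positive in T cells. The log2 ratios in DCs and in T cells were -1.61 and 3.83 for Cmpk2, a nucleotide kinase, -2.86 and 1.55 for Gbp10, and -1.66 and 1.51 for Ifi35. They were -1.84 and 4.20 for Oas1a and -3.03 and 2.99 for Oas1g, which are close copies. They were -6.15 and 8.84 for Phf11c, -1.97 and 1.12 for Pml, and -2.44 and 1.47 for Ube2l6, the ISG15 conjugating enzyme. The other two genes went the opposite way, at 1.32 and -7.77 for Batf2 and 3.61 and -1.15 for Parp12. The T cell ratios of Cmpk2 and Oas1g are set against PBS T cells at 0 and rest on the floor of 3 counts. Phf11c had 1 count in treated DCs and 4 in PBS T cells, so both its ratios rest on few counts. The T cell ratio of Batf2 rests on 1 count in treated T cells, and the DC ratio of Gbp10 on 6 counts in treated DCs.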

How the results depend on the processing

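No called gene among those recomputed and no list median of at least 2-fold changed sign. Requiring 20 counts in both libraries left 1814 genes called higher in treated T cells, 2108 in PBS T cells, 4123 called with treatment in DCs and 2762 in T cells. A 4-fold threshold gave 1750 genes higher in PBS DCs and 2777 called with treatment in T cells. Of the interferon genes, it gave 71 shared (20 counts in both treated libraries and under 4-fold apart), 27 higher in DCs and 14 higher in T cells, and 13 were higher with treatment in both cell types. An 8-fold threshold gave 1600 and 2809 genes higher in treated DCs and T cells, 1243 and 1942 in PBS DCs and T cells, 3735 and 2030 called with treatment in DCs and T cells, and 88, 15, 9 and 6 interferon genes in the same order as above. These counts follow from fewer genes tested or from the threshold itself. The other counts of calls stayed within 1.5 times. Single genes were recomputed for the genes named by rule, the interferon genes and all listed markers. Of these values, 3593 kept their call or stayed uncalled, 59 gained a call and 195 lost it. The sign of genes that stayed uncalled was not followed. Of the recomputed list medians, 327 kept their sign and 11 changed sign, each from a main median under 2-fold. Total-count CPM gave 4 of these sign changes. The deposited FPKM gave the same 4, because their ratios equal those of total-count CPM, so these are counted again. No paired analysis was possible because each group has 1 library and the treated libraries share only the replicate number 1. Depth limits genes at 0, up to 0.213 CPM in treated DCs and 0.162 CPM in treated T cells.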
